A study of Mus musculus with 8 samples.

Results

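The 10 genes described here encode the D-type cyclins (Ccnd1, Ccnd2, Ccnd3), the E-type cyclins (Ccne1, Ccne2), the cyclin-dependent kinases of G1 (Cdk2, Cdk4, Cdk6) and the Cip/Kip inhibitors p21 (Cdkn1a) and p27 (Cdkn1b). They were chosen by gene symbol from the 27179 genes of the expression table, all 10 were found, and all 10 passed the filter on low values among 12605 genes tested. Messenger RNA was sequenced from splenic CD4+ T cells of C.Cg-Foxp3tm2Tch/J mice aged 8 weeks, a strain whose Foxp3 gene carries a GFP reporter and which was used in every group. Control offspring (Ctr) came from untreated parents, and Cd offspring came from parents given 10 ppm CdCl2 in their drinking water from before mating, which the mothers received until birth, so the offspring's exposure was prenatal and through the parents. The cells were enriched by removing other cell types, sorted (as CD25-negative conventional T cells, in the study's description), and either lysed at once (unstimulated, 0 hours) or cultured for 16 hours with beads carrying anti-CD3 and anti-CD28 antibodies, which engage the T cell receptor and its co-receptor (stimulated). Each of the 4 groups (Ctr Unstim, Ctr Stim, Cd Unstim, Cd Stim) had 2 libraries, numbered 6 and 7, and the labels do not give the sex of the mice. No group was cultured for 16 hours without beads, so the effect of the beads and that of the time in culture cannot be told apart. Stimulation below means both together. The comparison answers how these genes responded to stimulation and whether parental Cd changed their level or their response.

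Resting T cells sit outside the cell cycle until antigen receptor and co-receptor signals drive them into G1. D-type cyclins bind Cdk4 and Cdk6, and the active kinases phosphorylate the retinoblastoma protein and its relatives, which releases E2F transcription factors to switch on S phase genes. E-type cyclins with Cdk2 complete this step, while p27 holds kinase complexes inactive in resting T cells and p21 is an inhibitor induced by p53 and by mitogenic signals.

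The libraries held 15542732 to 25486791 reads on genes, with a median of 19434588. Library pairs within a group had a Pearson correlation of 0.983 to 0.990 across genes. All 6 T cell markers were expressed, with a summed level of 1741 to 1925 RPKM (reads per kilobase of transcript, scaled to the size of the library) in unstimulated and 1246 to 1270 in stimulated libraries, and Cd4 itself lay between 212 and 315 RPKM. Markers of other cells were low but not all absent: Ms4a1 (B cells), Cd14 (myeloid cells), Klra8 (NK cells) and the alpha globin genes were at 0 in every library, Cd8a was at most 0.160 RPKM, and Cd8b1 was at 9.40 to 11.7 RPKM. Other members of these lists were present. Cd79a (B cells) was at 2.87 to 4.73 RPKM and Alas2 (erythroid cells) at 0.365 to 1.72. In unstimulated libraries Klrb1c (NK cells) was at 3.15 to 4.35 and Itgam (myeloid cells) at 1.56 to 1.85. The summed erythroid list was at 0.365 to 1.72 in unstimulated and 1.04 to 1.38 in stimulated libraries. From unstimulated to stimulated libraries, the summed myeloid list went from 1.96 to 2.12 RPKM down to 0.416 to 0.597, the NK list from 3.15 to 4.35 down to 0.147 to 0.293, and the B cell list from 3.12 to 3.76 up to 4.19 to 4.89. The regulatory T cell list went from 14.9 to 19.2 up to 140 to 173 RPKM, of which Il2ra, which activated T cells also express, made up 94.0 to 117 RPKM, while Foxp3 was at 4.48 to 5.08 in unstimulated and 5.98 to 7.69 in stimulated libraries. The part of these shifts in the results below was not tested, and in bulk RNA fewer cells of a type cannot be told apart from less RNA per cell. RPKM is also a share of each library. A lower level, as given below for Ccnd3 and Cdkn1b, therefore need not mean fewer transcripts per cell, and RNA per cell was not measured.

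The 10 genes spanned a wide range of levels, and their order changed with stimulation. In unstimulated control cells Ccnd2 had the highest mean level, followed by Cdkn1b, Ccnd3, Cdk4, Cdk2, Cdk6, Ccne1, Ccne2, Ccnd1 and Cdkn1a, and no 2 neighbours in this order had overlapping libraries. Unstimulated Cd cells had the same order, again without overlap between neighbours. In stimulated control cells the order was Ccnd2, Cdk4, Cdkn1b, Ccnd3, Cdk6, Cdk2, Cdkn1a, Ccne1, Ccne2 and Ccnd1, and the libraries of Cdk2 and Cdkn1a overlapped while those of the other neighbours did not. Stimulated Cd cells had this order too, with no overlap between neighbours. Over all 8 libraries Ccnd2 ranked 190 of 12605 tested genes by mean RPKM, Cdk4 616, Cdkn1b 778 and Ccnd3 1401, whereas Ccnd1 ranked 12138.

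**Figure D1:**
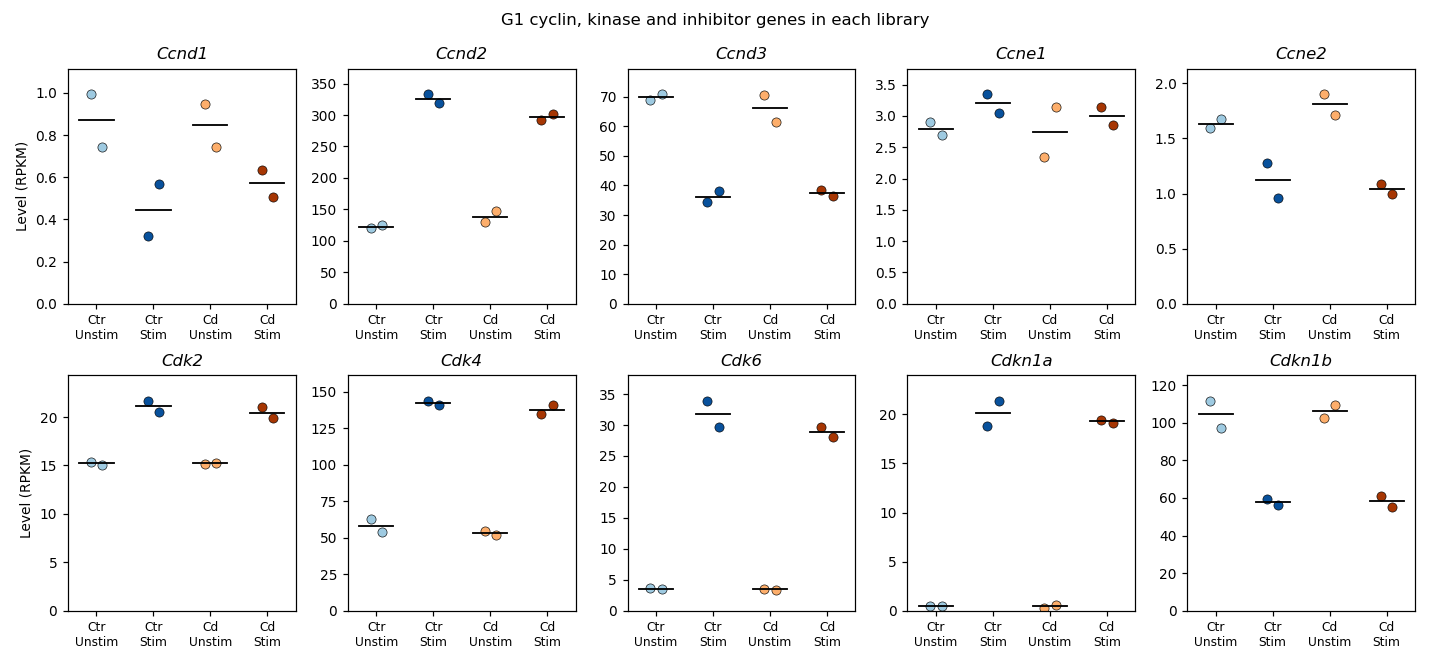
Level of each gene in RPKM (vertical axes, each starting at 0) in the 8 libraries, by group on the horizontal axis; points are libraries and bars are the mean of 2. Cdkn1a rises from at most 0.625 RPKM to at least 18.9, Cdk6 from at most 3.62 to at least 28.0, and Cdkn1b and Ccnd3 are lower in every stimulated library.

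After stimulation 4 of the 10 genes were called higher in control offspring and the same 4 in Cd offspring: Ccnd2, Cdk4, Cdk6 and Cdkn1a. None was called lower, although Ccnd3 and Cdkn1b were close to the fold threshold in both. A gene was called at a Benjamini-Hochberg adjusted p under 0.01 and a change of more than 2-fold in limma on log2(RPKM + 0.1), and this held for 18.7% of all tested genes in control and 18.6% in Cd offspring (11.5% and 11.4% higher, 7.17% and 7.24% lower). Without the fold threshold, at an adjusted p under 0.05, 9 of the 10 genes passed in control offspring, 5 higher and 4 lower, against 64.8% of all tested genes (36.9% higher, 27.8% lower), and 8 passed in Cd offspring, 5 higher and 3 lower, against 65.9% (36.5% higher, 29.4% lower). Over the 10 genes the log2 fold change had a median of 0.33 in control and 0.28 in Cd offspring, beside 0.07 and 0.05 over all tested genes, and the median size of the change was 0.90 and 0.84, beside 0.48 and 0.49. In control offspring the stimulated libraries did not overlap the unstimulated ones for any of the 10 genes, 6 higher and 4 lower, where 83.1% of all tested genes did not overlap. In Cd offspring 5 were higher and 4 lower without overlap and Ccne1 overlapped, beside 83.1% again. The 2 stimulation comparisons use separate libraries, but all 4 groups share 1 estimate of the spread.

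**Figure D2:**
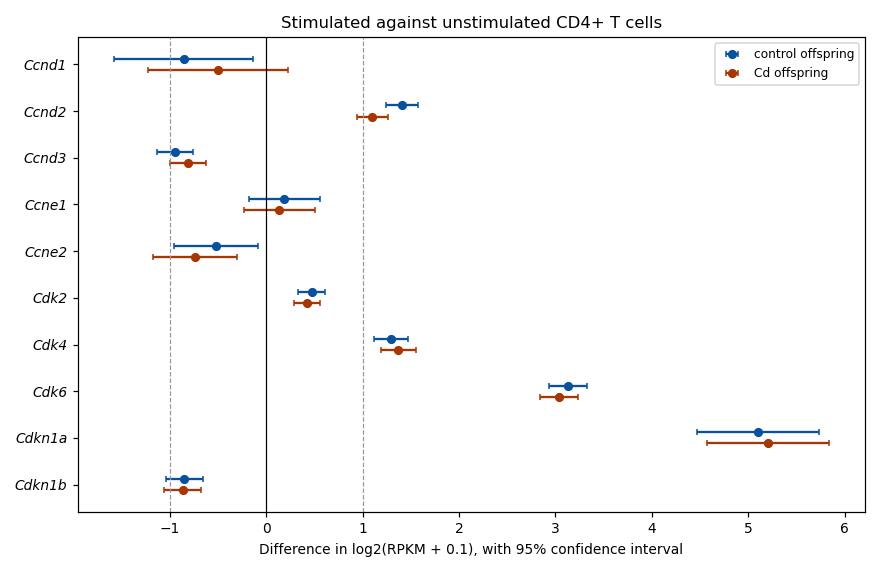
Difference between stimulated and unstimulated cells in log2(RPKM + 0.1) (horizontal axis) for each gene in control and Cd offspring; points are limma estimates, bars their 95% confidence intervals, and dashed lines mark 2-fold. Cdkn1a lies at 5.10 and 5.21, Cdk6 at 3.13 and 3.03, and the intervals of Ccne1 span 0 in both.

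Among the D-type cyclins, Ccnd2 was called higher after stimulation, Ccnd3 was lower in every stimulated library, and Ccnd1 was close to absent. Ccnd2 (chromosome 6, 127125162 to 127152188, GRCm38) was at 121 and 125 RPKM in Ctr Unstim, 334 and 319 in Ctr Stim, 129 and 148 in Cd Unstim, and 291 and 302 in Cd Stim. Every stimulated library was above every unstimulated one, with 29946 to 44442 reads behind each stimulated value. The mean went from 123 ± 3.24 to 326 ± 10.7 RPKM (SD, n = 2) in control offspring, a 2.65-fold rise (log2 fold change 1.41, SE 0.07, limma adjusted p = 2.324e-06). In Cd offspring it went from 139 ± 13.1 to 297 ± 7.53 RPKM, a 2.15-fold rise (log2 fold change 1.10, SE 0.07, limma adjusted p = 7.58e-06).

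Ccnd3 (chromosome 17, 47505051 to 47599689), the D cyclin of maturing thymocytes and other lymphoid cells, was at 69.0 and 71.0 RPKM in Ctr Unstim, 34.3 and 38.2 in Ctr Stim, 70.6 and 61.6 in Cd Unstim, and 38.4 and 36.6 in Cd Stim. All 4 stimulated libraries lay below all 4 unstimulated ones. The difference was 1.93-fold in control (log2 fold change -0.95, SE 0.08, limma adjusted p = 3.122e-05) and 1.76-fold in Cd offspring (-0.81, adjusted p = 7.139e-05), so it passed the adjusted p but not the 2-fold threshold. In control offspring it crossed that threshold when the values were rescaled by medians of ratios (-1.02) or by quantiles (-1.08), or when Ctr Stim library 7 was left out (-1.03).

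Ccnd1 (chromosome 7, 144929931 to 144939831), the D cyclin best known from fibroblasts and epithelia, was barely present. It had 19 to 70 reads per library, at 0.996 and 0.743 RPKM in Ctr Unstim, 0.322 and 0.569 in Ctr Stim, 0.950 and 0.744 in Cd Unstim, and 0.635 and 0.506 in Cd Stim. Stimulated libraries were lower without overlap in both kinds of offspring. The log2 fold change was -0.86 (SE 0.31, limma adjusted p = 0.0419) in control and -0.50 (SE 0.31, adjusted p = 0.1931) in Cd offspring, and neither was called. The control value passed an adjusted p under 0.05 in 7 of 18 alternative settings, and its mean of 0.683 RPKM put it below the stricter filter of 1 RPKM.

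The E-type cyclins were low before and after 16 hours of stimulation. Ccne1 (chromosome 7, 38097984 to 38107490) was at 2.90 and 2.70 RPKM in Ctr Unstim, 3.36 and 3.05 in Ctr Stim, 2.34 and 3.14 in Cd Unstim, and 3.14 and 2.85 in Cd Stim. The libraries of stimulated and unstimulated cells overlapped in Cd offspring and lay close together in control offspring. Its log2 fold change was 0.19 with a 95% interval of -0.18 to 0.56 in control (limma adjusted p = 0.3275) and 0.14 with an interval of -0.23 to 0.51 in Cd offspring (adjusted p = 0.4716). Ccne2 (chromosome 4, 11190433 to 11204779) was at 1.59 and 1.68 RPKM in Ctr Unstim, 1.28 and 0.959 in Ctr Stim, 1.90 and 1.71 in Cd Unstim, and 1.09 and 1 in Cd Stim. All stimulated libraries were lower, with 60 to 119 reads per library. The difference was 1.43-fold in control (log2 fold change -0.52, SE 0.19, limma adjusted p = 0.0401) and 1.67-fold in Cd offspring (-0.74, SE 0.19, adjusted p = 0.009405), both under the 2-fold threshold.

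All 3 kinase genes were higher after stimulation, and Cdk6 by far the most. Cdk6 (chromosome 5, 3341004 to 3531008) was at 3.62 and 3.45 RPKM in Ctr Unstim, 33.9 and 29.6 in Ctr Stim, 3.52 and 3.33 in Cd Unstim, and 29.6 and 28.0 in Cd Stim. The stimulated and unstimulated libraries stood far apart, with tight pairs within each group. It rose 8.75-fold in control (log2 fold change 3.13, SE 0.09, limma adjusted p = 3.02e-07) and 8.20-fold in Cd offspring (3.03, SE 0.09, adjusted p = 3.503e-07), which ranked 153 and 170 by size of change among the 12605 tested genes.

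Cdk4 (chromosome 10, 127063535 to 127067288), the more abundant partner of the D cyclins, was at 62.5 and 53.6 RPKM in Ctr Unstim, 144 and 141 in Ctr Stim, 54.7 and 51.6 in Cd Unstim, and 134 and 141 in Cd Stim. Stimulated libraries were all above unstimulated ones. It rose 2.46-fold in control (log2 fold change 1.30, SE 0.08, limma adjusted p = 4.935e-06) and 2.59-fold in Cd offspring (1.37, SE 0.08, adjusted p = 4.009e-06). Cdk2 (chromosome 10, 128697938 to 128705051), the partner of the E cyclins, was at 15.4 and 15.0 RPKM in Ctr Unstim, 21.7 and 20.5 in Ctr Stim, 15.2 and 15.2 in Cd Unstim, and 21.0 and 19.9 in Cd Stim. The groups did not overlap, and the spread within pairs was small. The difference of 1.39-fold in control (log2 fold change 0.47, SE 0.06, limma adjusted p = 0.0002444) and 1.34-fold in Cd offspring (0.42, SE 0.06, adjusted p = 0.0004332) passed the adjusted p but not the fold threshold.

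The 250 bases before the start of the 3 kinase genes are printed because these genes share a family and changed by different amounts. They were read from RefSeq promoters of GRCm38.p6, which held 9 windows for 7 of the 10 genes (Ccnd1, Ccnd2 and Ccne2 had none), and each runs 5′ to 3′ on the gene's strand. Capitals mark the E-box letters CACGTG, bound by Myc with Max, or one of the E2F letters TTTCCCGC, TTTGGCGC, TTTCGCGC and TTTGCCGC or their complements. The Cdk4 window is chr10:127063285-127063534 on the plus strand, the Cdk6 window chr5:3343643-3343892 on the plus strand, inside the annotated span of the gene, and the Cdk2 window chr10:128705052-128705301 on the minus strand.
Cdk4: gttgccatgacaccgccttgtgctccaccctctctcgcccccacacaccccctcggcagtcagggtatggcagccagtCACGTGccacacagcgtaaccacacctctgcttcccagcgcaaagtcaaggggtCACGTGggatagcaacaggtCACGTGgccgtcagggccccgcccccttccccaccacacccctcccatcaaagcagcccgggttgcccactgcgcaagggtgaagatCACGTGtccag
Cdk6: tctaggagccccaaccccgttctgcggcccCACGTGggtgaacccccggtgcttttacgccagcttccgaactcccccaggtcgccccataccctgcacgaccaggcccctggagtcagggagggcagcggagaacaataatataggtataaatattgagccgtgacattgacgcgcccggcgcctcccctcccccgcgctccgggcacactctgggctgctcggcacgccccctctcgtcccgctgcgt
Cdk2: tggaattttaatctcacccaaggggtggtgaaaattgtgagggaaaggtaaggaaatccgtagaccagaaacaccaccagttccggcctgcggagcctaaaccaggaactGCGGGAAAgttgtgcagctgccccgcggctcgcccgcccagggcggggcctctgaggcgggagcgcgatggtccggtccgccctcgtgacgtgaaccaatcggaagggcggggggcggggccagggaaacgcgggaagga
The E-box letters occur 4 times before Cdk4, at 172, 118, 98 and 11 bases before the start, and 1 time before Cdk6, at 220 bases. Of 32851 promoter windows of this length, 6.02% hold the letters at least 1 time and 0.0609% (20 windows) hold them 3 or more times. The E2F letters occur 1 time before Cdk2, at 140 bases, and in 1.86% of all windows. None of the other 6 windows of the 10 genes holds either motif. A window upstream of Ccnd3 holds the forkhead letters TGTTTAC or their complement 1 time, at 243 bases, as do 3.17% of windows, and the CRE letters TGACGTCA, in 1.55% of windows, are in none of the 9. Each motif was searched on both strands, and a match describes these letters only.

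The inhibitors differed in opposite directions, and only Cdkn1a was called. Cdkn1a (chromosome 17, 29090979 to 29100722) was at 0.521 and 0.454 RPKM in Ctr Unstim, 18.9 and 21.4 in Ctr Stim, 0.280 and 0.625 in Cd Unstim, and 19.5 and 19.1 in Cd Stim. It went from 11 to 26 reads in unstimulated libraries to 594 to 987 reads in stimulated ones. The mean went from 0.488 ± 0.0475 to 20.1 ± 1.79 RPKM (SD, n = 2) in control and from 0.452 ± 0.244 to 19.3 ± 0.246 in Cd offspring. The log2 fold change was 5.10 (SE 0.27, limma adjusted p = 3.046e-06) in control and 5.21 (SE 0.27, adjusted p = 3.005e-06) in Cd offspring, a rise of 34.4-fold and 37.0-fold that ranked 23 and 19 by size among all tested genes. The size depends on the pseudocount because the unstimulated level was low: at a pseudocount of 1 RPKM the log2 fold change was 3.83 and 3.81, and the ratio of mean RPKM with none was 41.3 and 42.6.

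Cdkn1b (chromosome 6, 134920401 to 134925525) was at 112 and 97.4 RPKM in Ctr Unstim, 59.5 and 56.4 in Ctr Stim, 103 and 109 in Cd Unstim, and 61.0 and 55.3 in Cd Stim. All stimulated libraries lay below all unstimulated ones. The difference was 1.80-fold in control (log2 fold change -0.85, SE 0.08, limma adjusted p = 5.918e-05) and 1.82-fold in Cd offspring (-0.87, SE 0.08, adjusted p = 5.432e-05), and it stayed under the 2-fold threshold.

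Because RPKM is per length, the genes of a family can be set against each other. Ccnd2 made up 63.3 to 70.3% of the summed D cyclin level in unstimulated and 88.2 to 90.6% in stimulated libraries, and the ratio of Ccnd2 to Ccnd3 went from 1.75 to 2.40 up to 7.58 to 9.73. The summed D cyclin level went from 191 to 210 RPKM up to 331 to 368 RPKM. The Cdk6 share of the 3 kinases went from 4.44 to 4.80% up to 14.8 to 17.0%, while Cdk4 remained the main kinase transcript, and the ratio of Cdk4 to Cdk6 went from 15.5 to 17.3 down to 4.24 to 5.03. Cdkn1a made up at most 0.568% of the summed inhibitor level in unstimulated libraries and 24.1 to 27.5% in stimulated ones, where Cdkn1b was still 2.64 to 3.15 times as high. The ratio of summed inhibitors to summed D cyclins went from 0.497 to 0.589 down to 0.213 to 0.243, and that of inhibitors to kinases from 1.36 to 1.57 down to 0.393 to 0.435. Within the E cyclins, Ccne1 made up 55.2 to 64.7% in unstimulated and 72.4 to 76.1% in stimulated libraries. None of these ranges overlapped between unstimulated and stimulated libraries, and they are given as descriptions, with no test.

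**Figure D3:**
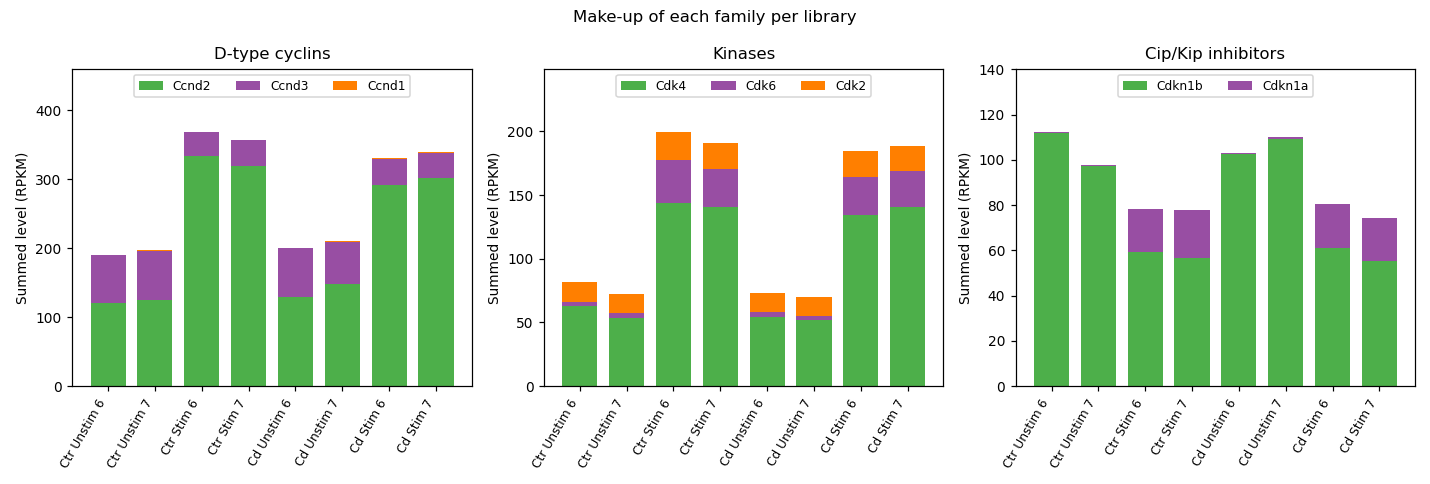
Summed RPKM (vertical axes from 0) of the D-type cyclins, the 3 kinases and the Cip/Kip inhibitors in each library (horizontal axes), stacked by gene. The D cyclin bars stand at 191 to 210 RPKM in unstimulated and 331 to 368 in stimulated libraries, with a taller Ccnd2 and a shorter Ccnd3 segment after stimulation, and Cdkn1a appears in the inhibitor bars of stimulated libraries.

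Setting Cd against control offspring, limma called none of the 10 genes (adjusted p under 0.05), be it in unstimulated cells, in stimulated cells or in the response to stimulation. In limma, 0.896% of all tested genes were called between Cd and control offspring in unstimulated cells, 0% in stimulated cells (414 genes had an unadjusted p under 0.05), and 0.357% differed in their response. At an unadjusted p under 0.05, 1 of the 10 genes passed in unstimulated cells, none in stimulated cells and 1 in the response, Ccnd2 each time, where 13.9%, 3.28% and 10.6% of all tested genes passed, so 1 gene in 10 was near the background. A second test, limma voom on recovered reads, also called none of the 10 in any of the 3. Between Cd and control libraries, 8 of the 10 genes overlapped in unstimulated cells, where 42.3% of tested genes did not overlap, and 8 overlapped in stimulated cells, where 36.7% did not.

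Ccnd2 stood above its controls before stimulation and below them after it. The 129 and 148 RPKM of Cd Unstim compare with 121 and 125 in Ctr Unstim, a log2 difference of 0.17 (95% interval 0.01 to 0.33, limma adjusted p = 0.341), which became 0.07 without Cd Unstim library 7 and 0.27 without Cd Unstim library 6. The 291 and 302 RPKM of Cd Stim compare with 334 and 319 in Ctr Stim, a log2 difference of -0.14 (95% interval -0.30 to 0.03, limma adjusted p = 1). The libraries did not overlap in either state, and the rise with stimulation was smaller in Cd offspring by 0.31 on the log2 scale (interval of the difference -0.54 to -0.08, limma adjusted p = 0.3525), so the difference did not pass the correction. The other non-overlapping genes were Ccne2, higher in Cd Unstim with a log2 difference of 0.14 (interval -0.30 to 0.57), and Cdk6, lower in Cd Stim with -0.14 (interval -0.34 to 0.06).

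For the other genes the intervals bound what could have been missed. In unstimulated cells the 95% interval of the log2 difference between Cd and control offspring was -0.14 to 0.14 for Cdk2, -0.17 to 0.21 for Cdkn1b, -0.25 to 0.16 for Cdk6, -0.27 to 0.10 for Ccnd3 and -0.30 to 0.05 for Cdk4. In stimulated cells it was -0.18 to 0.09 for Cdk2, -0.19 to 0.19 for Cdkn1b, -0.23 to 0.13 for Cdk4 and -0.14 to 0.24 for Ccnd3. The genes with few reads were bounded less well: in unstimulated cells the interval ran from -0.76 to 0.69 for Ccnd1 and from -0.79 to 0.47 for Cdkn1a, and in stimulated cells from -0.40 to 1.05 for Ccnd1. For Ccne1 it ran from -0.41 to 0.33 in unstimulated and from -0.46 to 0.28 in stimulated cells. The interval of Ccne2 in stimulated cells was -0.52 to 0.35. Cdkn1a, with 594 to 987 reads in stimulated cells, still had an interval of -0.69 to 0.57 there, since its spread was estimated with the unstimulated libraries. With 2 libraries against 2, an exact permutation test of a single gene could not go below p = 0.333.

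**Figure D4:**
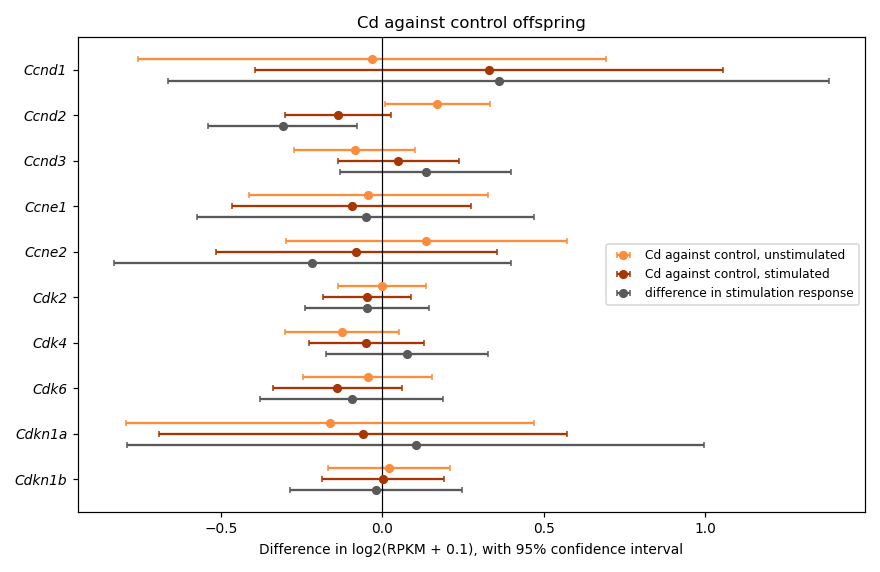
Difference between Cd and control offspring in log2(RPKM + 0.1) (horizontal axis) for each gene in unstimulated cells, in stimulated cells, and in the response to stimulation; points are limma estimates and bars 95% confidence intervals. Ccnd2 lies at 0.17 in unstimulated and -0.14 in stimulated cells, and the intervals of Ccnd1 and Cdkn1a are the widest.

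Other genes of the G1 to S pathway, 35 chosen by role, put these values in context. Of the 28 that could be tested, 6 were called higher and 3 lower with stimulation in control offspring, and 6 higher and 2 lower in Cd offspring. Of all tested genes 18.7% and 18.6% were called (11.5% and 11.4% higher, 7.17% and 7.24% lower). These calls need the 2-fold threshold, and several genes not called still passed the adjusted p, as given below. The median log2 fold change of the 28 was 0.41 and 0.38. Myc, a transcription factor that drives growth and cell cycle entry, went from 35.9 and 32.3 RPKM to 198 and 187 in control offspring, with a log2 fold change of 2.49 (SE 0.11, limma adjusted p = 1.436e-06). Foxo1, a transcription factor of resting T cells that activates Cdkn1b, went from 136 and 136 RPKM down to 43.1 and 44.1 (log2 fold change -1.64, SE 0.04, adjusted p = 2.487e-07). In Cd offspring both were called in the same direction, with log2 fold changes of 2.39 and -1.60.

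Within the E2F and DP family, E2f1, E2f3, E2f6 and Tfdp1, a DNA-binding partner of E2F proteins, were called higher in both kinds of offspring. Their log2 fold changes in control and Cd offspring were 1.47 and 1.49 for E2f1, 2.43 and 2.39 for E2f3, 1.24 and 1.26 for E2f6, and 1.93 and 1.81 for Tfdp1. E2f2 fell in control offspring, with a log2 fold change of -1.15, and had -0.91 in Cd offspring, under the fold threshold. E2f4 had the highest level of the listed E2F genes, with a mean of 34.2 RPKM in Ctr Unstim and 64.7 in Ctr Stim. Its log2 fold changes of 0.92 and 0.86 passed the adjusted p (limma adjusted p = 0.0001119 and 0.0001609) but not the fold threshold. None of the 3 pocket protein genes was called: Rbl2 (p130), which represses E2F targets in resting cells, had -0.92 and -0.83, Rbl1 (p107) 0.35 and 0.06, and Rb1 0.12 and 0.02. Rbl2 passed the adjusted p in both (limma adjusted p = 1.235e-05 and 2.151e-05) but not the fold threshold. The same held for Rbl1 in control offspring (limma adjusted p = 0.004283).

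Cdkn2d, an INK4 inhibitor that blocks Cdk4 and Cdk6, fell in both, with log2 fold changes of -2.03 and -1.55, and Cks1b, a cofactor by which the Skp2 ligase recognises p27, rose by 2.06 and 2.26. Skp2 itself had 0.92 and 0.83 (limma adjusted p = 0.005646 and 0.008663). Cdc25a, the phosphatase that activates Cdk2, had 0.89 and 0.79 (limma adjusted p = 2.206e-05 and 4.002e-05). Trp53, which encodes the p53 activator of Cdkn1a, had 0.47 in both (limma adjusted p = 5.02e-05 and 5.175e-05). Mdm2, another p53 target, had -0.51 and -0.50 (limma adjusted p = 5.479e-05 and 6.3e-05). Skp2, Cdc25a, Trp53 and Mdm2 thus passed the adjusted p in both kinds of offspring but not the fold threshold, and were not called. The cyclins and the kinase of S phase and mitosis were near absent. Ccna2, Cdk1 and Ccnb1 were too low to test, with at most 0.549, 0.855 and 0.488 RPKM in any library, and Ccnb2 had at most 0.835 RPKM. None of the 28 was called between Cd and control offspring in either state, or in the response, by limma.

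**Figure D5:**
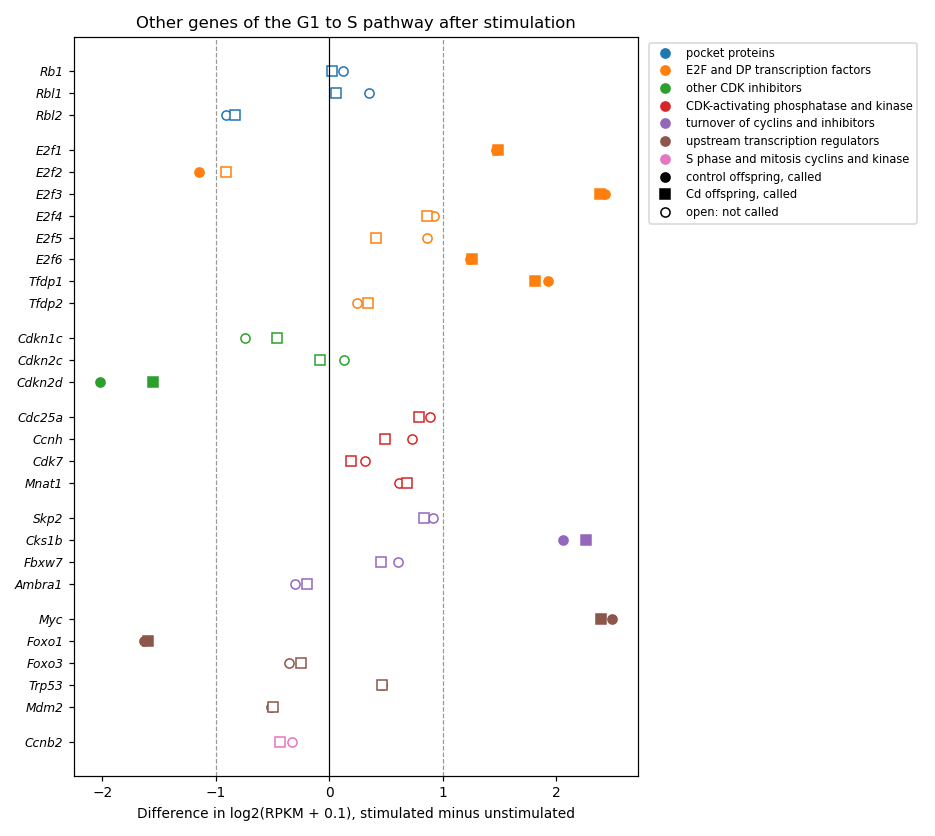
Difference between stimulated and unstimulated cells in log2(RPKM + 0.1) (horizontal axis) for 28 other genes of the pathway, grouped by role; circles are control and squares Cd offspring, filled where called, and dashed lines mark 2-fold. Myc, E2f3, Cks1b and Tfdp1 lie farthest to the right and Cdkn2d and Foxo1 farthest to the left.

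The genes whose profiles over the 8 libraries were most like those of 3 of the genes were found by the root mean square distance between centred log2(RPKM + 0.1) values. For Ccnd2 they were Atp2a2 (0.0305), the calcium pump of the endoplasmic reticulum, Cct8 (0.0444), a chaperonin subunit, and Cdc45 (0.0468), a part of the replicative helicase, against a median distance of 0.643 over all tested genes. For Cdk4 they were Bri3bp (0.0394), Pfdn4 (0.0412), a prefoldin subunit, and Rrs1 (0.0486), a ribosome assembly factor, with a median of 0.674. For Cdkn1b they were Usp25 (0.0377), a deubiquitinase, Cytip (0.0393), a regulator of integrin adhesion in leukocytes, and Sgk3 (0.0458), a kinase, with a median of 0.515. These distances describe likeness across 8 libraries that fall into stimulated and unstimulated cells.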

How the data were processed

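Splenic CD4+ T cell RNA was measured in 8 libraries. The authors used subread for alignment to mm10 and featureCounts for reads per RefSeq transcript; versions, strand and the treatment of multi-mapping reads are not given in the sources used here. The deposited values are log2(RPKM + 1) + 0.0001, read from the values themselves, and were turned back into RPKM. Whole reads, library totals and counted lengths were recovered from the steps between values; on simulated libraries 99.1% of genes came out exact. The spans of 7 of the 10 genes overlap another gene (Pmel for Cdk2, Tspan31 for Cdk4, Bysl for Ccnd3). Reads from any shared exons could not be told apart without strand. Only whole spans were compared, so whether exons overlap was not checked.

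Testing covered genes whose RPKM averaged 0.5 or more, with limma 3.58.1 (R 4.3.3) on log2(RPKM + 0.1), with 4 group means, empirical Bayes moderation with a trend, and Benjamini-Hochberg adjustment over all genes tested. The study used EdgeR3 on counts; the table holds log2 values, so limma was used. For stimulation a call needed a change of over 2-fold and an adjusted p under 0.01, and for Cd an adjusted p under 0.05. On data simulated for stimulation in control offspring, limma called 200 of 200 changed genes among 12605 and 0 unchanged ones. How well limma finds small changes, or differences between Cd and control offspring, was not tested in this way. Groups came from the sample labels. All 10 genes are named, with the pathway genes and the 3 nearest profiles of Ccnd2, Cdk4 and Cdkn1b; the genes and lists were chosen with earlier results of these data known. The labels do not say that the 2 libraries of a group come from separate mice, so p values measure the spread between these samples. Alternatives covered pseudocounts, filters, scalings, a replicate block, voom and leaving out each library. Promoters came from RefSeq tables (GRCm38.p6). Python 3.11.15 with numpy 2.4.6, pandas 2.3.3 and matplotlib 3.10.9 prepared tables and plots.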

Additional observations from a re-analysis of the deposited data

How the results depend on the processing

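The number of the 10 genes called was 4 for stimulation in control offspring, 4 in Cd offspring, and 0 for each Cd comparison. Over 94 alternatives of these counts, 92 stayed within 1.5 times, and dropping the fold threshold (adjusted p under 0.05) gave 9 and 8. Quantile scaling moved the median log2 fold change of all genes with stimulation in control offspring from 0.07 to -0.03; the 10 genes kept their direction under it in that comparison. Ccnd1 and Ccne2 had at most 119 reads a library. The stimulation value of Ccne2 passed an adjusted p under 0.05 in 9 of 19 alternatives in control and in 18 of 19 in Cd offspring. Limma voom on recovered reads was added after seeing the data.

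A replicate block by number also gave 4, 4, 0, 0 and 0 of the 10 genes called. Libraries of equal number deviated together little (correlation 0.0635 in control and 0.0085 in Cd offspring). With so few libraries in each group, this cannot show whether equal numbers mark the same mouse. The labels do not state it either, and the main fit did not take the numbers as pairs. For its qPCR the paper used paired tests of stimulated against unstimulated samples. Over all genes the block lowered the calls for Cd in unstimulated cells from 113 to 76; they were 65 without a filter, 52 with only the libraries compared, 14 without a trend, 211 with voom, and 19 (without Ctr Unstim library 6) to 105 with a library left out. Genes that differed in their response numbered 45, and 36 or 25 with a block by number or animal label, 28 without a filter, 4 without a trend, 111 with voom, 3 without Ctr Stim library 6 and 2 without Cd Stim library 7. In stimulated cells Cd calls were 0 in the main fit, 9 without a filter and 2 without a trend. Some fits with a library left out also gave calls there.

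The sign changes below are of differences that were not called. For Cd in unstimulated cells, quantile scaling gave 0.0068 for Cdk2. For the difference in response, a pseudocount of 1 gave -0.0111 for Cdkn1a and median-of-ratios scaling 0.0106 for Cdkn1b. The others changed when 1 library was left out, as ranges of the log2 value. Stimulation in Cd offspring: Ccne1 -0.0667 to 0.339. Cd in unstimulated cells: Ccnd1 -0.2198 to 0.1581, Ccnd3 -0.1831 to 0.0135, Ccne1 -0.2457 to 0.16, Cdk2 -0.0166 to 0.0165, Cdkn1a -0.6286 to 0.3046, Cdkn1b -0.0767 to 0.1212. Cd in stimulated cells: Ccnd1 -0.0026 to 0.6617, Ccnd3 -0.0276 to 0.1275, Ccne2 -0.2712 to 0.1108, Cdkn1a -0.1487 to 0.0319, Cdkn1b -0.0666 to 0.0738. Difference in response: Ccne1 -0.2541 to 0.1516, Cdk4 -0.0349 to 0.1869, Cdk6 -0.1916 to 0.0032, Cdkn1a -0.363 to 0.5702, Cdkn1b -0.1176 to 0.0803. The cause was not tested.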

Other observations

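Of the 28 pathway genes tested, 3 had an unadjusted p under 0.05 for a different response to stimulation in Cd offspring, a share near the 10.6% of all tested genes, and none passed the adjustment. They are named after their values were seen. Cdkn2d, an INK4 inhibitor of Cdk4 and Cdk6, was at 49.9 and 46.6 RPKM in Ctr Unstim and 41.0 and 37.2 in Cd Unstim, and at 11.5 and 12.0 in Ctr Stim and 12.7 and 13.7 in Cd Stim. Its libraries did not overlap between Cd and control offspring in either state, as for 42.3% of all tested genes in unstimulated and 36.7% in stimulated cells. Its response differed by 0.47 on the log2 scale (95% interval 0.23 to 0.71, limma adjusted p = 0.166). E2f5, an E2F that works with pocket proteins as a repressor, responded with a log2 fold change of 0.86 in control and 0.41 in Cd offspring, a difference of -0.45 (interval -0.68 to -0.22, limma adjusted p = 0.1708). Rbl1, the pocket protein p107, responded with 0.35 and 0.06, a difference of -0.29 (interval -0.54 to -0.05, limma adjusted p = 0.3991).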
